A study of Mus musculus with 36 samples.

Results

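Brains of Tet1 knockout (KO) mouse embryos from dams on a folic acid-depleted diet (0.1 ppm) were compared with KO brains from dams on the control diet (3 ppm). The comparison took every library labelled as KO on either diet, which gave 5 libraries per diet and 10 of the 36 libraries in the series. Each library was made from 1 brain at E11.5 by reduced representation bisulfite sequencing with an oxidation step, so that 5-methylcytosine (5mC) is read without its oxidised forms. The embryos were homozygous for Tet1 tm1Koh, a germline allele that removes full-length Tet1, on a 129S6.Cg congenic background, and both groups came from heterozygous dams fed a custom diet that also contained the sulfa drug SST. The KO 0.1 ppm embryos were 2 labelled males and 3 labelled females from 4 litters, and 2 of them (replicates 3 and 4) were littermates with a neural tube defect (NTD). The KO 3 ppm embryos were 3 labelled males and 2 labelled females from 4 litters, with 1 NTD case (replicate 5) and 1 littermate pair (replicates 1 and 2). In each group 1 embryo carried the code inHB, which the study's list of embryos gives as a brain malformation, and the others were normal. Each litter was on 1 diet, so that the diet and the litter of an embryo cannot be told apart.

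Folate carries the one-carbon units that regenerate methionine from homocysteine, and methionine is the precursor of S-adenosylmethionine (SAM), the methyl donor of the DNA methyltransferases. TET1 acts in the opposite direction: it oxidises 5mC, which starts its removal, mostly at CpG-rich promoters and at enhancers. A folate-poor diet in Tet1 KO embryos thus tests the supply of methyl groups where full-length TET1 is missing, although a shorter Tet1 transcript with a later start can still be made in these brains. Folate shortage and loss of Tet1 have both been linked to defects in closure of the neural tube.

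The 10 libraries held between 25.8 and 46.9 M reads at CpGs, with a mean coverage from 12.1 to 22.1 reads per listed CpG, and 1058103 autosomal CpGs were covered at least 5 times in all of them. At 1 CpG in Tet1 (chromosome 10, position 62884019) the KO libraries read between 69.6% and 96.2% methylated, whereas the 4 WT libraries on 3 ppm lay between 0% and 7.32%. WT 0.1 ppm replicate 2 read 40.0% there and went against its label, while the other WT 0.1 ppm library read 6.25%. At promoters on the X chromosome the 5 labelled females averaged between 23.6% and 25.8%, and 4 of the 5 labelled males between 4.58% and 5.00%. The library labelled KO 3 ppm replicate 4, a male by its label, read 24.9% and went against that label. Without it 0 tiles, 0 promoters and 41 single CpGs were called in the comparisons below, against 0, 0 and 47 with all libraries.

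Mean methylation of the diets differed by less than the spread between embryos. Over the 1058103 shared CpGs the KO 0.1 ppm embryos read 37.0%, 37.0%, 36.8%, 36.66% and 37.1% (replicates 1 to 5), and the KO 3 ppm embryos 36.9%, 37.6%, 36.8%, 37.0% and 36.5%. The highest and the lowest embryo were both on the control diet, and the groups overlapped over the whole range of the depleted diet. The group means were 36.9% ± 0.204 (SD, n = 5) and 37.0% ± 0.408 (SD, n = 5). Their difference was -0.0322 percentage points, with a 95% interval from -0.551 to 0.409 obtained by inverting the exact permutation test (two-sided exact permutation p = 0.905, adjusted p = 0.968 over the 16 values per embryo that were tested; with 5 against 5 embryos no p can be below 0.00794). With each read weighted equally the difference was -0.766 points (exact permutation p = 0.484), and over each library's own CpGs it was 0.732 (exact permutation p = 0.690).

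**Figure D1:**
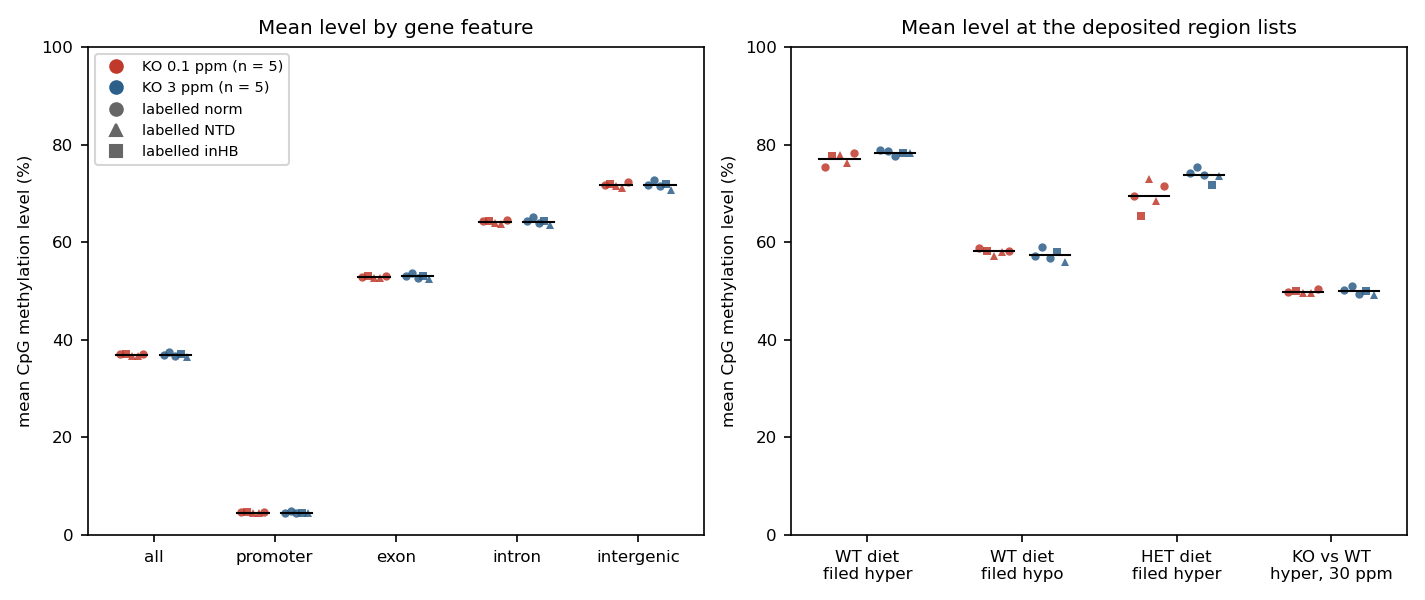
Methylation level (%) of each KO embryo on the 0.1 and 3 ppm diets, for all shared CpGs and gene features (left) and for the study's region lists (right). Points are embryos, with symbols for the labelled phenotype, and bars are group means. On the left the embryos of the diets overlap throughout, and over all CpGs the means are 36.9% and 37.0%. At the list filed for heterozygous embryos, 4 embryos on 0.1 ppm lie below all embryos on 3 ppm.

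Each kind of sequence gave small differences as well. CpGs in promoters (1 kb to either side of a gene's 5′ end), most of which lie in unmethylated CpG islands, averaged 4.60% on 0.1 ppm and 4.59% on 3 ppm. Exons averaged 52.9% and 53.0%, introns 64.2% and 64.2%, and intergenic CpGs 71.7% and 71.7%. The largest of these 4 differences was -0.103 points, in exons, with an interval from -0.606 to 0.389. CpGs were also sorted by the level of their 1 kb tile in the 4 WT embryos on 3 ppm, which took no part in the comparison. In the class at 10 to 35% in WT the KO embryos read 38.2% ± 0.585 and 37.9% ± 1.11 (SD, n = 5 each). The difference of 0.326 points had an interval from -1.07 to 1.47 (exact permutation p = 0.579, adjusted p = 0.968). With 1 embryo left out it ranged from 0.0405 to 0.785 points. The other 4 classes differed by between -0.242 and 0.0327 points, each with an adjusted permutation p of 0.968.

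The spread between embryos was close on the 2 diets. The spread of an embryo was the median, over 59941 tiles, of its absolute distance from the mean of the other embryos on its diet. It was 3.15 points on 0.1 ppm and 3.16 points on 3 ppm, a difference of -0.00858 with an interval from -0.392 to 0.379 (permutation p = 0.937, n = 5 each). The values were not recomputed for each relabelling of the embryos, so this p and interval are approximate. The mean absolute difference per tile between 2 embryos ranged from 4.34 to 5.95 points over the 45 pairs. It was 5.03 and 5.23 for the pairs of littermates, against a median of 5.22 for embryos of the same diet from other litters and 5.31 for embryos of different diets.

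Individual regions were then compared. The autosomes were cut into tiles of 1 kb, and reads were tested by a quasi-binomial model in which the embryo is the replicate. Tiles with 3 or more shared CpGs and an SD of at least 2 points over the 10 embryos were tested. A call required a difference of 10 points or more besides an adjusted p under 0.05. None of the 59941 tested tiles was called (0%), in either direction, by this test or by limma on the levels. With 1 embryo left out between 0 and 6 tiles were called, the highest count being that without KO 3 ppm replicate 5. Among normal embryos alone (KO 0.1 ppm replicates 1 and 5, KO 3 ppm replicates 1 to 3) the test called 58 tiles. Of these embryos KO 3 ppm replicates 1 and 2 were littermates. The test called 5 tiles each with the labelled sex or phenotype in the model or with the reads of littermates summed. At an unadjusted p under 0.05 and 10 points, 220 tiles (0.367%) were higher and 216 (0.36%) were lower on 0.1 ppm. The embryos of the diets did not overlap at 478 tiles (0.797%), of which 229 were higher and 249 lower. With a difference of 10 points or more there were 45 higher and 43 lower.

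Differences of tiles were small and balanced around 0. The median tile differed by -0.0878 points, 48.6% of tiles were higher and 51.4% lower on 0.1 ppm, and the central range from the 5th to the 95th percentile ran from -5.31 to 5.03 points. Only 638 tiles (1.06%) differed by 10 points or more, and 11 by 20 points or more. An embryo had a median of between 60 and 112 reads at a tested tile. Single intervals from limma on the levels had a median half-width of 5.39 points, and 77.3% of tiles had a 95% interval that lay within 10 points on either side of 0, with 98.9% within 20 points. At the other tiles the interval did not leave out a difference of that size.

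**Figure D2:**
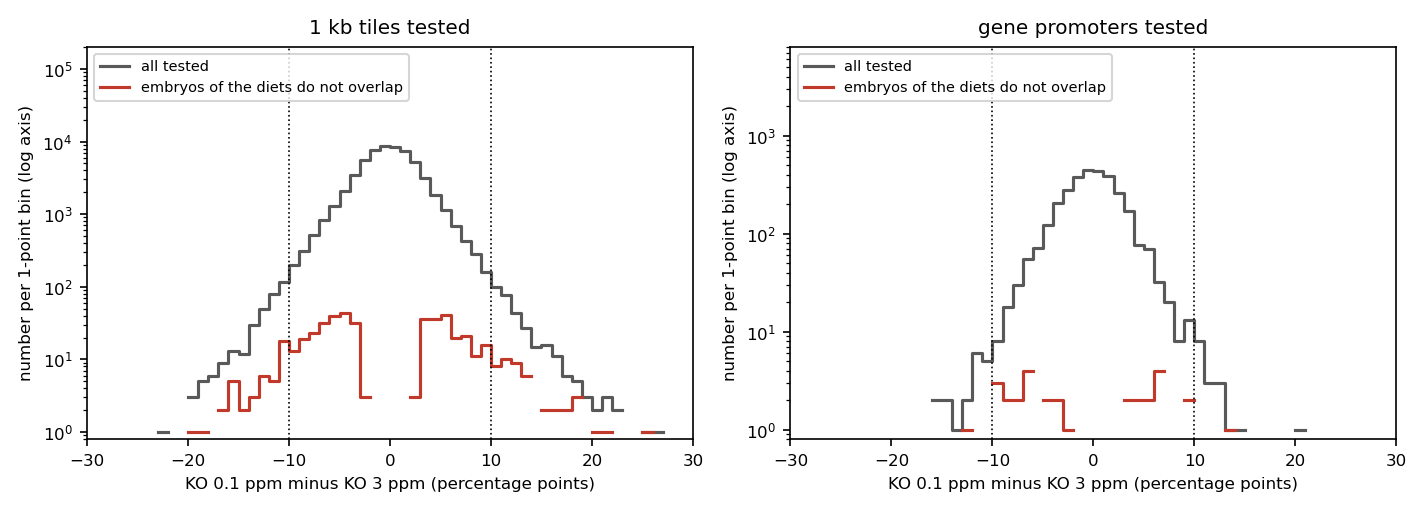
Number of tested 1 kb tiles (left) and gene promoters (right) per 1-point bin of the difference KO 0.1 ppm minus KO 3 ppm, in percentage points, on a log axis. The red line counts those whose embryos of the diets do not overlap, and dotted lines stand at 10 points. Both distributions are centred near 0, with medians of -0.0878 and -0.174, and few features lie beyond the dotted lines.

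The tile nearest to a call on the higher side lay 29130 bases from the start of Psmb2, which encodes a subunit of the proteasome, in intergenic DNA (mm10, chromosome 4, 126648001 to 126649000). Its 5 measured CpGs read 43.38%, 41%, 33.1%, 43.9% and 44.6% in the KO 0.1 ppm embryos and 22.0%, 15.2%, 30.7%, 18.7% and 26.4% in the KO 3 ppm embryos. The lowest depleted embryo (replicate 3) and the highest control embryo (replicate 3) came nearest to each other, and the groups did not overlap. The means were 41.19% ± 4.71 and 22.6% ± 6.14 (SD), a difference of 18.6 points, and the 4 WT embryos on 3 ppm averaged 27.98%. The quasi-binomial test gave an adjusted p of 0.0754, which missed the threshold. The stretch that carries these CpGs is shown from the RefSeq GRCm38.p6 assembly, forward strand, chr4:126648464-126648581, with each measured CpG in capitals.
Psmb2 tile: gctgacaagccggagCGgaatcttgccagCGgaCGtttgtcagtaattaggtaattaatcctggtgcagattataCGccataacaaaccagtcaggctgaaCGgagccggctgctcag

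The tile at the start of the long non-coding RNA gene 2810429I04Rik (chromosome 13, 3478001 to 3479000, 17 CpGs) had the same adjusted p, 0.0754. It read 50.47%, 43.8%, 47.2%, 46.1% and 64.0% on 0.1 ppm against 32.1%, 41.19%, 37.9%, 32.1% and 39.1% on 3 ppm, without overlap, and the difference was 13.8 points. Replicate 5 of the depleted diet stood above the rest, and without it the difference was 10.4 points. WT embryos on 3 ppm averaged 25.99%, below every KO embryo. A stretch of 250 bases that starts just before its first measured CpG, with measured CpGs in capitals, is chr13:3478244-3478493 on the forward strand of the same assembly.
2810429I04Rik tile: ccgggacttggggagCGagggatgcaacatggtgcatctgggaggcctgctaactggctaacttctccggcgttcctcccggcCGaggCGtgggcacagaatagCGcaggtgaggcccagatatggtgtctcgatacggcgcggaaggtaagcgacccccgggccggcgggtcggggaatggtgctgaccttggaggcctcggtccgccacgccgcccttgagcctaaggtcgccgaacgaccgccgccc

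Both tiles passed the quasi-binomial test under some other settings and failed it under others. With the labelled sex in the model their adjusted p was 0.0376 and 0.0123, but these labels include that of KO 3 ppm replicate 4, which its X chromosome level contradicts. Without that embryo, and without sex in the model, the adjusted p was 0.187 and 0.248. With the reads of littermates summed it was 0.0120 for both, and with all 16 KO libraries in the fit it was 0.9998 for both. Of these libraries KO 30 ppm replicate 1 is listed as heterozygous by the study, and it read 45% at the Tet1 CpG, where the other 5 KO 30 ppm libraries read between 77.8% and 100%. With it set aside, an alternative chosen after seeing the data, the adjusted p was 0.213 and 0.426.

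Of the other 4 tiles chosen by the same rule on the higher side, 1 lay in intergenic DNA and 3 in introns. A tile in an intron of Trps1, a GATA-type transcriptional repressor, had the largest difference of the 12 tiles named. It read 94.4%, 100%, 84.0%, 92.3% and 95.8% on 0.1 ppm against 66.7%, 75.5%, 63.0%, 66.7% and 69.7% on 3 ppm, 25.02 points apart, on 3 CpGs and between 15 and 53 reads per embryo. The groups did not overlap, but the adjusted p was 0.442. A tile in an intron of Zfp704, a zinc finger gene, averaged 46.1% and 24.5% (21.7 points, adjusted p = 0.555). A tile in an intron of Prox1, a homeobox regulator of neural progenitor exit from the cell cycle, averaged 88.3% and 71.9% (16.5 points, adjusted p = 0.410). The measured stretches of the Trps1 tile (chr15:50840591-50840709) and the Zfp704 tile (chr3:9513738-9513859) are given on the forward strand because they carry the largest of these differences on few CpGs, which are in capitals.
Trps1 tile: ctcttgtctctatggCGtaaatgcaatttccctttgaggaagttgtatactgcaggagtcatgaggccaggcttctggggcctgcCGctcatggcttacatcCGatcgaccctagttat
Zfp704 tile: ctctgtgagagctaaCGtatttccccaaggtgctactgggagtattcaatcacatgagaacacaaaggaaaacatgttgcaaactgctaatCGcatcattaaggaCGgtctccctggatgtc

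On the lower side the tile with the smallest p lay in an exon of Gm16892 within Tbc1d23, a gene of endosome-to-Golgi trafficking (chromosome 16, 57169001 to 57170000, 7 CpGs). It read 68.3%, 83.1%, 74.7%, 77.0% and 77.6% on 0.1 ppm against 86.1%, 84.2%, 94.6%, 88.2% and 88.9% on 3 ppm. Replicate 2 of each diet came close to the other group without overlap, and the means differed by -12.3 points (adjusted p = 0.178). A tile in an exon of Slc7a14, a member of the cationic amino acid transporter family, read 46.7%, 46.3%, 43.8%, 31.6% and 55.1% on 0.1 ppm and 59.5%, 60.7%, 62.0%, 63.6% and 74.0% on 3 ppm. The means were 44.7% and 64.0%, -19.3 points apart with an adjusted p of 0.231, while WT embryos on 3 ppm averaged 14.3%. Each KO embryo thus lay above all 4 WT embryos, whose highest was 17.3%, and the depleted KO embryos lay between them and the control KO embryos. Of the remaining tiles, 1 lay in intergenic DNA, 154106 bases from the start of Vegfc, a growth factor of lymphatic vessels (87.6% and 98.3%). The others lay in an exon of Exoc3l2 (54.2% and 70.4%) and in introns of Mnd1, a meiotic recombination factor (76.1% and 87.1%), and of Kank4 (79.4% and 94.1%). Each remaining tile had an adjusted p of 0.555. The intergenic tile that was higher, 57566 bases from 4930594M17Rik on chromosome 18, averaged 56.1% on 0.1 ppm and 35.6% on 3 ppm (20.4 points, adjusted p = 0.231).

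**Figure D3:**
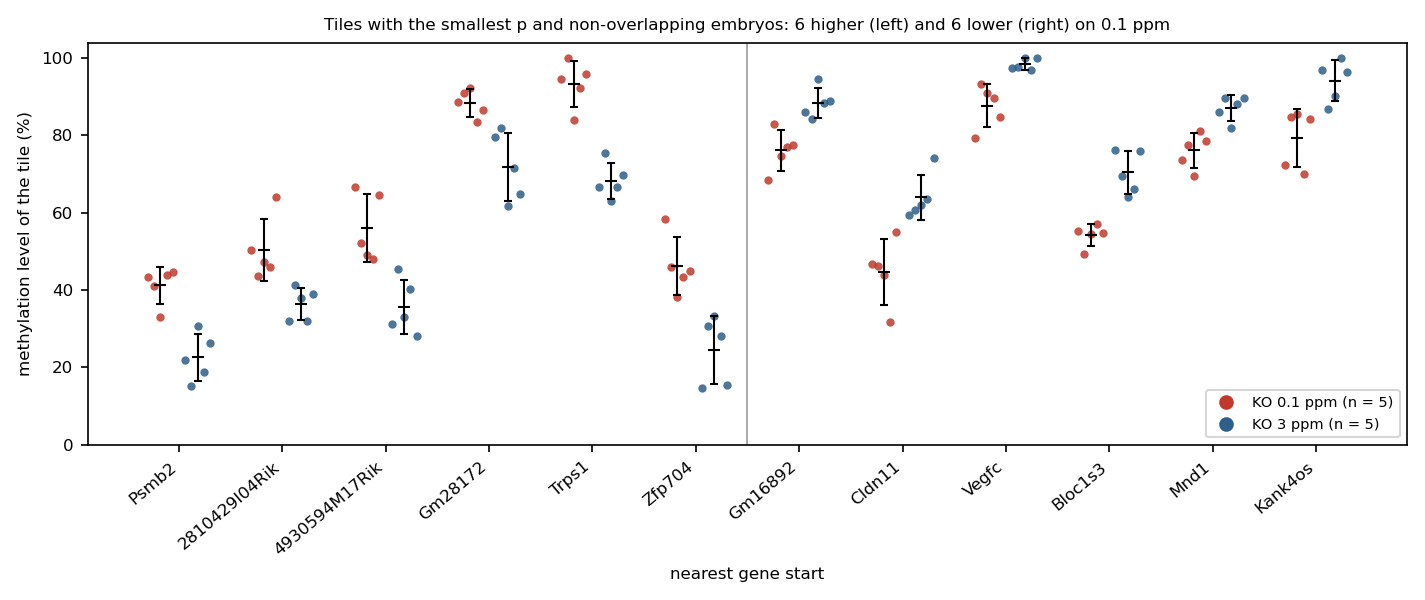
Methylation level (%) of each embryo at the 12 tiles named, 6 higher and 6 lower on 0.1 ppm. Points are embryos of the 0.1 ppm and 3 ppm KO groups, and bars are means ± SD. The groups do not overlap at any of the 12 because the rule chose them so, and the smallest adjusted p among them is 0.0754.

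Gene promoters gave 1 value per gene, from a window at its outermost annotated 5′ end. Starts of a gene outside this window did not enter the value. CpGs were measured in the promoters of 15988 of 30192 genes, and 3123 varied enough to be tested. None was called (0%) by the quasi-binomial test or by limma. At an unadjusted p under 0.05 and 10 points 7 promoters (0.224%) were higher and 10 (0.32%) lower on 0.1 ppm. The diets did not overlap at 30 promoters (0.961%), 13 higher and 17 lower, and the lowest adjusted p was 0.351. For 94.6% of the measured promoters the 95% limma interval of the difference lay within 10 points of 0. Only 2 promoters met the rule for naming, the one of 2810429I04Rik described above and the one of 9530026P05Rik, an antisense RNA gene. The latter (3 CpGs) read 11.1%, 15.6%, 20.5%, 24.2% and 21.4% on 0.1 ppm against 33.3%, 30.6%, 29.0%, 29.5% and 34.8% on 3 ppm, without overlap. The difference was -12.9 points with an adjusted p of 0.618, and WT embryos on 3 ppm averaged 5.24%.

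Genes that take up and use folate were examined as lists. Among the 6 of 8 measured folate carriers and receptors, 5 were higher and 1 lower on 0.1 ppm. Their median difference was 0.277 points, against -0.0214 over all 15988 promoters. Of these 6 promoters 3 varied enough to be tested, and none of the 3 was called or was without overlap. Slc46a1, the proton-coupled folate transporter, read 14.3%, 9.18%, 10.7%, 16.4% and 11.1% on 0.1 ppm and 10.9%, 11.8%, 17.9%, 12.1% and 19.6% on 3 ppm. These values interleaved, and the means of 12.3% ± 2.94 and 14.5% ± 3.99 (SD) differed by -2.13 points, with a limma interval from -6.84 to 2.58. The Slc46a1 values rest on 5 CpGs. The study states that its reduced representation data left the shore (flank) of the CpG island at this promoter without coverage. The promoter of Slc19a1, the reduced folate carrier, was nearly unmethylated, at 0.952% and 0.153%. Cubn, a receptor that works in vitamin B12 and protein uptake, averaged 36.29% and 34.7%. No CpG of the Folr1 promoter was covered in all 10 libraries.

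Of 24 one-carbon and folate enzymes 21 were measured, 6 higher and 15 lower, with a median of -0.106 points. Mthfd1 averaged 2.74% and 3.25%, Mthfd1l 0.627% and 0.610%, Shmt1 0.752% and 0.755%, and Mtr, the methionine synthase, 0.845% and 0.777%. The extremes of the list were Tyms, thymidylate synthase (17.98% and 21.3%), and Aldh1l1, a folate dehydrogenase of glia (86.8% and 82.4%). Replicate 2 of either diet carried the highest Tyms level, 32.5% and 38.64%, in an otherwise overlapping series. In the methionine and SAM cycle 13 of 17 genes were measured, 8 higher and 5 lower, with a median of 0.124 points. Mat2a, which makes SAM, averaged 0.925% and 1.11%, and Ahcy, which clears S-adenosylhomocysteine, 1.18% and 1.84%. Cth, of the transsulfuration route, was at 7.49% and 5.41%.

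The enzymes of DNA methylation and demethylation gave 11 measured genes of 15, 3 higher and 8 lower, with a median of -0.129 points. The measured window of Dnmt1, the maintenance methyltransferase, lies at its outermost annotated start and holds 5 CpGs. Starts of Dnmt1 outside this window did not enter. The window read 89.6%, 93.7%, 84.1%, 77.6% and 88.8% on 0.1 ppm and 91.5%, 91.7%, 88.8%, 89.3% and 90.3% on 3 ppm. The lowest values were those of the NTD littermates, replicates 3 and 4, and the difference of -3.55 points had a limma interval from -9.50 to 2.40. The promoters of the de novo enzymes Dnmt3a (0.870% and 0.834%) and Dnmt3b (0.576% and 0.706%) and of Tet2 (0.530% and 0.730%) were close to unmethylated. Only 1 promoter CpG each of Tet1 and Tet3 was covered in all 10 libraries, too few for a value. Dppa3, which limits maintenance methylation in early embryos, averaged 74.3% and 79.3%.

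Neural tube closure genes had low promoter levels, 2.63% on 0.1 ppm and 3.16% on 3 ppm on average. Of 27 such genes 26 were measured, 14 higher and 12 lower, and the median difference was 0.0186 points. Fgfr1, a receptor of fibroblast growth factors, was the only member of the 20 gene lists to reach 10 points and an unadjusted p under 0.05, which 0.32% of all tested promoters did on the lower side. Its 5 measured CpGs (promoter at chromosome 8, 25512654 to 25514654) read 38%, 56.0%, 50.48%, 36.9% and 40.0% on 0.1 ppm and 66.7%, 45.5%, 61.3%, 60.0% and 63.3% on 3 ppm. Control replicate 2 lay below replicates 2 and 3 of the depleted diet, while the other 4 control embryos lay above all depleted embryos. The means of 44.3% ± 8.48 and 59.4% ± 8.17 (SD) differed by -15.1 points, with an adjusted p of 0.885. WT embryos on 3 ppm averaged 36.36% there. Grhl3, an epithelial regulator of closure, averaged 1.55% and 0.917%, and Pax3, a dorsal neural tube factor, 0.592% and 0.642%. In planar cell polarity, the pathway that narrows the neural plate, 21 of 21 genes were measured, 8 higher and 13 lower, with Vangl2 at 1.87% and 0.745% and Celsr1 at 1.31% and 1.18%.

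WNT ligands, receptors and inhibitors gave 45 measured genes of 48, 17 higher and 28 lower, with a median of -0.0794 points. Wnt8a, a ligand of early axis patterning, averaged 74.99% and 79.7%, and Ctnnb1, which encodes beta-catenin, 76.7% and 70.6%. The Ctnnb1 window, with 8 CpGs, lies at the outermost annotated start, and starts outside it did not enter. Of the 5 genes tested 1 was without overlap (0.961% of all tested promoters were), Dkk3, a secreted protein of the Dickkopf family, at 5.70% and 8.62%, which is under the 10-point limit. Axon guidance (51 of 55 genes, 24 higher and 27 lower), the Sonic hedgehog pathway (14 of 14, 6 and 8), brain patterning factors (31 of 32, 13 and 18) and proneural factors (21 of 24, 7 and 14) had medians between -0.0735 and -0.0174 points. Their mean levels were low, from 0.872% to 3.27% on 0.1 ppm. Only 2, 1, 1 and 2 of their promoters, in the same order, varied enough to be tested. None of those was called, and the other members could not be called. Of 19 neurotransmitter transporters 18 were measured, 11 higher and 7 lower. Slc10a4, a vesicular transporter of cholinergic and aminergic neurons, averaged 22.4% on 0.1 ppm and 22.3% on 3 ppm, against 6.95% in WT on 3 ppm. Slc32a1, which loads GABA into vesicles, averaged 2.90% and 2.88%.

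**Figure D4:**
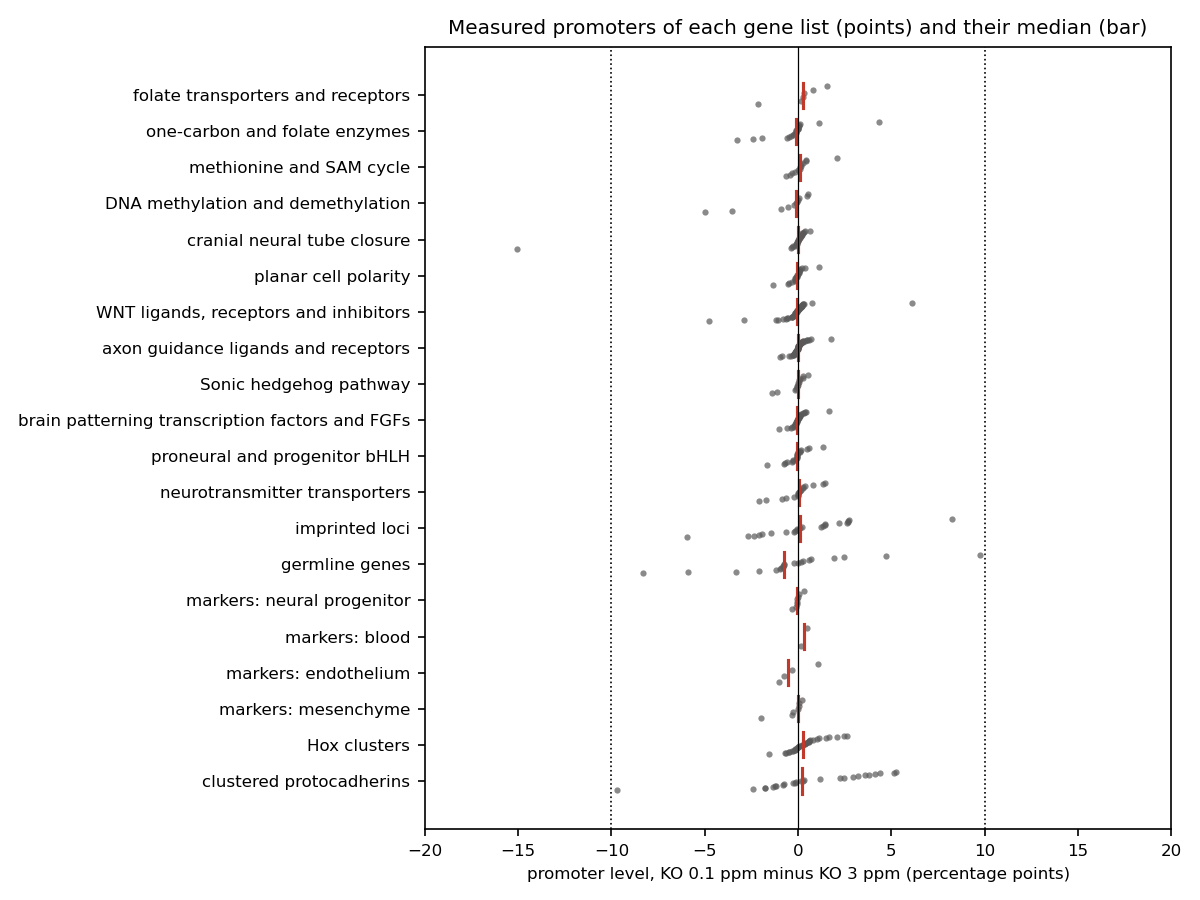
Difference KO 0.1 ppm minus KO 3 ppm (percentage points) of every measured promoter in each gene list. Each point is 1 gene and each bar the median of its list. The medians lie between -0.750 for germline genes and 0.335 for the 2 measured blood markers, and both can change sign when 1 embryo is left out. The 1 promoter of the closure list beyond 10 points is that of Fgfr1.

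Promoters that are methylated in the embryo offered more room for a change. Germline genes, which are silenced by promoter methylation in the soma, were at 72.0% and 72.3% on average over 21 measured genes of 28, 9 higher and 12 lower. Spaca1, a protein of the sperm acrosome, read 82.1%, 88.6%, 77.9%, 89.6% and 77.8% on 0.1 ppm and 75.8%, 67.3%, 73.8%, 76.1% and 74.3% on 3 ppm, without overlap. The difference was 9.76 points with an adjusted p of 0.869. Sycp3, of the meiotic synaptonemal complex, averaged 70.9% and 79.2%, and Dazl, an RNA-binding protein of germ cells, 32.9% and 30.9%. Clustered protocadherins, cell-surface proteins that give neurons an identity through stochastic promoter choice, gave 26 measured genes of 56, 14 higher and 12 lower. Pcdhac1 was the only one of 23 tested without overlap, against 0.961% of all tested promoters, and had the lowest adjusted p of any promoter, 0.351. It read 37.9%, 37.2%, 37.7%, 39.5% and 42.7% on 0.1 ppm against 50.103%, 43.9%, 49.3%, 49.5% and 50.7% on 3 ppm, over 33 CpGs. The difference of -9.69 points fell short of the 10-point limit, and WT embryos on 3 ppm averaged 25.01%. Hox promoters (35 of 39 genes, 22 higher and 13 lower) had a mean level of 2.62% and 2.24%. Hoxc10, a gene of posterior identity, averaged 8.54% and 5.91% without overlap, but varied too little to be tested.

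Imprinted loci are read as a control for methylation that is kept through development on 1 parental allele. At 25 loci a tile with an intermediate WT level was found, which gave 21 separate tiles. Of these, 11 were higher and 10 lower on 0.1 ppm, the median difference was 0.733 points, and none was called. The mean over these tiles lay between 45.5% and 50.9% in the depleted and between 47.0% and 50.7% in the control embryos. The Snrpn tile had the largest difference, 11.5 points. It read 62.6%, 21.7%, 37.4%, 39.5% and 40.9% on 0.1 ppm against 30.9%, 25.97%, 33.6%, 19.7% and 34.4% on 3 ppm. Replicate 1 of the depleted diet was the highest of the 10 embryos, replicate 2 was the second lowest, and the adjusted p was 0.851. The Mest tile was at the other end, at 35.23% and 43.75%. The tile at Kcnq1ot1, the non-coding RNA that silences its neighbours on the paternal allele, was the only one of the 21 without overlap, against 0.797% of all tested tiles. It read 47.2%, 45.5%, 43.8%, 43.2% and 45.04% on 0.1 ppm and 50%, 57.6%, 49.4%, 53.1% and 48.0% on 3 ppm, a difference of -6.68 points with an adjusted p of 0.691. The H19 tile had the widest spread of the 21, with means of 54.9% ± 20.4 and 58.9% ± 17.2 (SD).

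Promoters of cell type markers were read as levels only, since promoter methylation is not expression. Neural progenitor markers (8 of 10 measured) averaged 0.726% on 0.1 ppm and 0.768% on 3 ppm, with Sox1 at 0.651% and 0.963% and Vim at 1.2597% and 0.965%. Blood markers (2 of 10) averaged 2.60% and 2.26%, endothelial markers (4 of 7) 45.9% and 46.2%, and mesenchymal markers (7 of 9) 4.27% and 4.60%. No neural progenitor or blood marker varied enough to be tested, so none of them could be called. Of the endothelial markers 2 were tested (Tie1 and Emcn), and of the mesenchymal markers 1 (Col1a1). None of those was called, and the embryos of the diets overlapped at each. The part of the cell makeup of the brains in the results was not tested.

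The embryos could also be read at regions that the study had filed for other comparisons. Regions filed as hyper for 0.1 against 3 ppm in WT embryos read 75.5%, 77.6%, 77.8%, 76.3% and 78.3% in KO 0.1 ppm embryos and 79.0%, 78.7%, 77.7%, 78.3% and 78.2% in KO 3 ppm embryos. The KO embryos did not help to choose these regions, but 3 of the 5 on 0.1 ppm and 4 of the 5 on 3 ppm were littermates of the WT embryos that did, so that differences between litters can enter both. Replicates 1, 2 and 4 of the depleted diet lay below all control embryos and the other two within their range. The difference was -1.25 points, with an interval from -2.69 to 0.0763 (exact permutation p = 0.0714, adjusted p = 0.571). Of the 1519 regions with at least 3 CpGs 960 (63.2%) were lower on 0.1 ppm, against 51.3% of all 87476 measured tiles. The WT embryos themselves read 67.3% on 0.1 ppm and 73.1% on 3 ppm at the CpGs these lists share with them, and both WT 0.1 ppm libraries were below all 4 WT 3 ppm libraries, which is the opposite of the filed direction. At the regions filed as hypo the KO means were 58.1% and 57.4% (0.739 points, interval from -0.848 to 2.20, exact permutation p = 0.238), and the WT means 48.0% and 41.96%, again opposite to the filed direction.

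Among the 339 regions filed as hyper for 0.1 against 3 ppm in heterozygous embryos, 4 were autosomal and held 37 shared CpGs. The KO embryos read 69.5%, 65.3%, 73.0%, 68.5% and 71.6% on 0.1 ppm and 74.1%, 75.4%, 73.8%, 71.7% and 73.7% on 3 ppm. Of the depleted embryos 4 lay below all control embryos, which is the opposite of the filed direction, although this list may be filed in reverse as the WT lists appear to be. WT embryos averaged 40.47% on 0.1 ppm and 38.63% on 3 ppm there, with the WT 0.1 ppm libraries on either side of the others, and the levels of the heterozygous embryos were not analysed here. The heterozygous and the KO embryos also came in part from the same litters. The means of 69.5% ± 2.97 and 73.7% ± 1.34 (SD, n = 5 each) differed by -4.19 points, with an interval from -7.74 to -0.698 (exact permutation p = 0.0159). This was the smallest p of the family, and it did not pass the adjustment (adjusted p = 0.254). The 3 of these regions with at least 3 CpGs lay in Sycp2l (84.9% and 88.8%) and Ptprs (31.4% and 36.5%) and near Clmn (89.2% and 90.8%).

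Regions that gain methylation in KO against WT embryos on the 30 ppm diet were chosen on none of these 10 embryos. At their 63165 shared CpGs the KO embryos averaged 49.9% on 0.1 ppm and 49.98% on 3 ppm, -0.0910 points apart, with an interval from -0.971 to 0.749 (exact permutation p = 0.810, n = 5 each). In WT embryos on 3 ppm these regions averaged 31.8%. The lists of the same kind from the 3 ppm and 0.1 ppm diets were chosen on the embryos compared here and are therefore described without a test. KO 0.1 ppm embryos differed from KO 3 ppm embryos by -0.385 points at the 3 ppm list and by 0.171 points at the 0.1 ppm list.

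Whether the diet acted differently in KO than in WT embryos was tested directly, with 2 WT embryos on 0.1 ppm and 4 on 3 ppm. Over 1006070 CpGs shared by these 16 libraries the KO means were 35.8% and 35.9%, and the WT means 33.2% and 33.1%. The diet difference was -0.0280 points in KO and 0.155 in WT, and the difference between them of -0.183 points gave an exact permutation p of 0.6254 over 3780 relabellings. Per tile, the quasi-binomial interaction term called 0 of 58052 tiles (0%), with 1302 at an unadjusted p under 0.05 and a difference of 10 points, and its lowest adjusted p was 0.323. WT 0.1 ppm replicate 2, which goes against its label, was 1 of only 2 embryos of its group. Without it the difference of the means was 0.238 points. The tile fit then has 1 WT embryo on 0.1 ppm, which is assumed to vary like the other groups, and it called 0 tiles with 2220 at the unadjusted threshold.

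Single CpGs were the only level with calls. Of 668128 CpGs tested, 47 (0.00703%) were called, 42 higher and 5 lower on 0.1 ppm. The count was 14 without KO 0.1 ppm replicate 4, 22 at a coverage of at least 10 and 1 without both embryos of litter 50 (KO 0.1 ppm replicates 3 and 4), the last chosen after seeing the data. At this level 1 dispersion, 1.04, served all CpGs, so that the test weighed each of them as if its embryos varied like an average CpG. A dispersion of 1 is that of reads alone. The differences between embryos of a diet at a given CpG thus hardly entered its p, which came close to a test with reads as replicates. The calls were not scattered: 42 of the 47 fell into 3 intervals of a few Mb each. The embryos of the diets overlapped at all 42, and they did not at 0.518% of all CpGs tested. The interval on chromosome 2 (67.6 to 69.8 Mb) held 5 of them, 3 higher and 2 lower, that on chromosome 10 (40.9 to 44.4 Mb) held 10, and that on chromosome 18 (9.28 to 13.7 Mb) held 27, all higher. In the same intervals 418, 1402 and 758 CpGs were tested, with median differences of 0.0425, -0.106 and 0.232 points.

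Within an interval the median of an embryo's called CpGs lay near 0, near 50 or near 100%, with single CpGs spread around it. On chromosome 10 their median was 45.4%, 45.75%, 95.8%, 96.1% and 47.0% in KO 0.1 ppm replicates 1 to 5, 0% in KO 3 ppm replicates 1 to 4 and 90.8% in KO 3 ppm replicate 5. KO 30 ppm embryos (the first is the library listed as heterozygous) were at 0%, 97.1%, 95.2%, 40.97%, 40.0% and 0%. WT embryos were at 0%, except WT 0.1 ppm replicate 2 at 39.0%. The upper level was read in each of the 3 NTD embryos compared here and in no other of the 10. On chromosome 18 the median was 44.4% and 91.7% in replicates 3 and 4 of the depleted diet, the littermates of litter 50, and 0% in the other 8 embryos and in all KO 30 ppm embryos. WT 0.1 ppm replicate 2, of the same litter, was at 35% there.

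**Figure D5:**
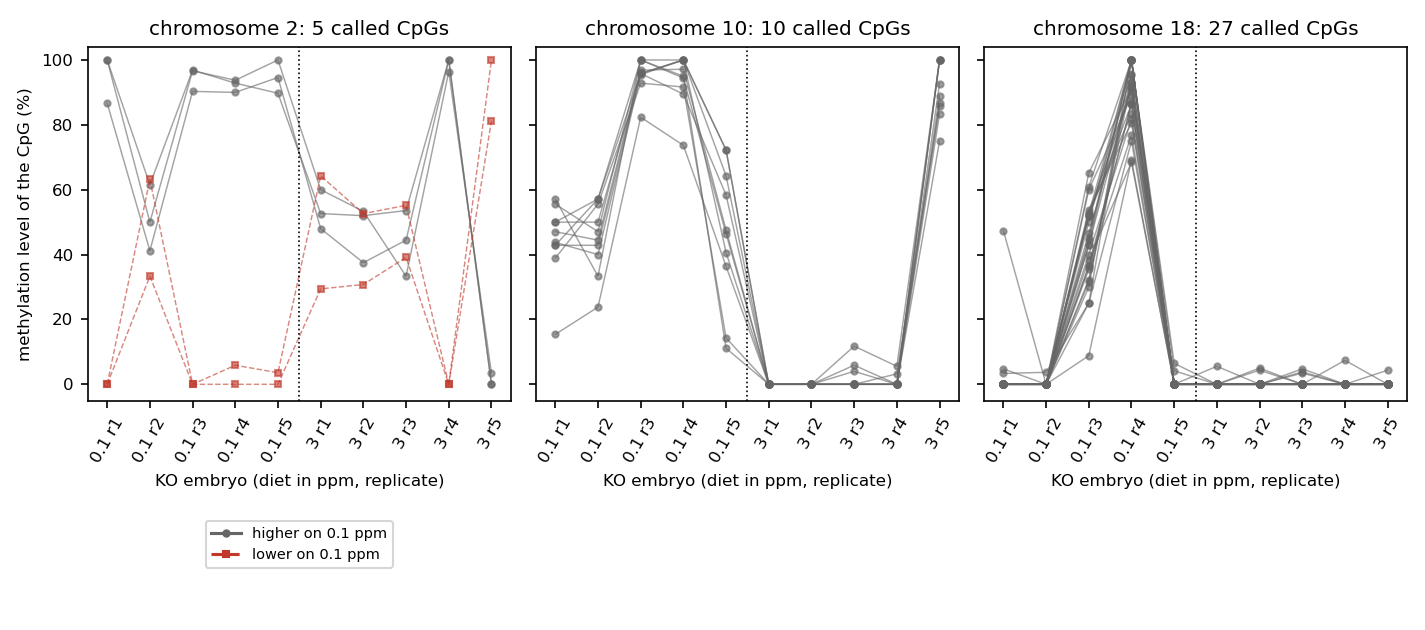
Methylation level (%) of each called CpG in the intervals on chromosomes 2, 10 and 18, by KO embryo (diet in ppm, replicate). Each line is 1 CpG, grey where it was higher and red where it was lower on 0.1 ppm. On chromosome 18 the 27 CpGs are raised in replicates 3 and 4 of the 0.1 ppm diet and near 0% elsewhere except for 1 CpG in replicate 1, and on chromosome 10 replicate 5 of the 3 ppm diet lies with the depleted embryos.

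On chromosome 2 the medians of the depleted embryos lay at 86.7%, 50%, 90.3%, 90% and 89.7%, against 52.6%, 52%, 44.4%, 96.4% and 3.45% on 3 ppm. Replicate 4 of the control diet thus lay with the depleted embryos, and a median near 0% was found only in replicate 5 of the control diet. These medians join CpGs called higher and lower. At the 2 CpGs called lower, 4 of the 5 depleted embryos and replicate 4 of the control diet read near 0%. Replicate 5 of the control diet read 81.3% and 100% there. In bisulfite data a C replaced by T in the genome reads as unmethylated. Whether the embryos differ in DNA sequence in these intervals was not tested. The congenic allele came from a C57BL/6 line, and reads were aligned to the C57BL/6J-based mm10 assembly.

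A called CpG of the chromosome 10 interval lies in an intron of Foxo3, a stress-responsive transcription factor (position 42214380). It read 43.8%, 40.0%, 95.5%, 100% and 40.6% on 0.1 ppm and 0%, 0%, 0%, 3.23% and 85.7% on 3 ppm. The called CpG with the most reads in that interval lies in an intron near Gm48671 (position 42919953), with between 27 and 61 reads per embryo. It read 47.1%, 44.4%, 96.9%, 97.1% and 47.5% against 0%, 0%, 0%, 0% and 92.7%. An example with the opposite direction is the CpG in an exon of Spc25, a kinetochore protein, on chromosome 2 (position 69198902). It read 0%, 33.3%, 0%, 0% and 0% against 29.4%, 30.8%, 39.1%, 0% and 81.3%. The reference sequence around these CpGs (forward strand, the CpG in capitals) is chr10:42214360-42214401, chr10:42919933-42919974 and chr2:69198882-69198923.
Foxo3 CpG: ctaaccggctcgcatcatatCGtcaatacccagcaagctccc
Gm48671 CpG: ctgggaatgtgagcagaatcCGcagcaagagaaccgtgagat
Spc25 CpG: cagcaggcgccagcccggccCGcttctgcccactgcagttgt

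The other 5 called CpGs stood alone, and at 4 of them the embryos did not overlap, against 0.518% of all CpGs tested. A call rests on the same values and favours groups that do not overlap, so these shares cannot be compared. The CpG at the promoter of Ihh, a hedgehog ligand of bone and gut (chromosome 1, position 74951044), rose on 0.1 ppm: it read 44.4%, 15.4%, 18.8%, 30.0% and 21.4% against 0%, 5.00%, 0%, 8.33% and 4.17%, with an adjusted p of 0.0430. The CpG in an intron of Mboat2, an acyltransferase of membrane lipids, near Kidins220 (chromosome 12, position 24906780) fell, with 71.4%, 50%, 69.6%, 60.0% and 62.5% against 100%, 100%, 92.9%, 100% and 92.3%, a difference of -34.3 points and an adjusted p of 0.0406. Those in introns of 5730480H06Rik (chromosome 5, position 48336011) and of Smyd1, a muscle histone methyltransferase, near Krcc1 (chromosome 6, position 71253026) fell by 21.8 and 19.5 points (adjusted p = 0.0304 and 0.0459). At these 3 that fell, the WT embryos on 3 ppm lay between 73.3% and 92.3%, while KO 3 ppm embryos lay between 92.3% and 100%. The libraries labelled KO 30 ppm lay below all KO 3 ppm embryos at the 5730480H06Rik CpG (76.5% to 90.9%) and the Kidins220 CpG (66.7% to 89.5%). At the Krcc1 CpG they lay between 81.8% and 100%, against 100% in each KO 3 ppm embryo. The fifth, in an exon of Wdfy2 near Defb48 (chromosome 14, position 62953038), rose by the test with an adjusted p of 0.00756, but 2 control embryos at 100% lay within the depleted group (100%, 100%, 100%, 92.0% and 100%). These calls rest on between 6 and 32 reads per embryo, and when the CpGs of the 3 intervals were set aside, an alternative chosen after seeing the data, none of the 5 kept an adjusted p under 0.05. The windows around the 4 CpGs without overlap are chr1:74951024-74951065, chr12:24906760-24906801, chr5:48335991-48336032 and chr6:71253006-71253047.
Ihh CpG: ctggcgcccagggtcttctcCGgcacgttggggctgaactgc
Kidins220 CpG: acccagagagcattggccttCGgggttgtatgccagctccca
5730480H06Rik CpG: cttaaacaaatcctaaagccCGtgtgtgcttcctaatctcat
Krcc1 CpG: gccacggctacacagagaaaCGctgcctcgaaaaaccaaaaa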

How the data were processed

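Genomic DNA of single brains was cut with MspI and TaqI and converted after oxidation. The authors trimmed reads with Trim Galore 0.6.10, aligned them to mm10 with Bismark 0.24.1 and removed duplicates by molecular identifiers with UMI-tools, per the labels and the submitters' processing notes. The tables deposited by the authors join both strands and list a methylated fraction and a read count for each CpG. Fraction times count was whole to within 3.64e-12 on every line, so methylated reads were recovered as counts. The lowest deposited count was 2. Adding 1 to the deposited positions placed 100% of 3382092 CpGs on a reference CG, so positions are printed counted from 1. The study's region lists hold positions only; its lists for the diets in KO embryos were not analysed here.

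CpGs on autosomes covered at least 5 times in all 10 libraries were used. Features were 1 kb tiles, promoters (1 kb to either side of a GENCODE vM21 gene start) and single CpGs, with at least 3 CpGs for tiles and promoters and an SD of at least 2 points over embryos. The quasi-binomial logistic model used a dispersion of at least 1, moderated across features by the method of squeezeVar in limma, with a two-sided F test and Benjamini-Hochberg adjustment over all features tested. For single CpGs the moderation gave 1 dispersion for all of them, and the F test became a chi-square test. A call needed an adjusted p under 0.05 and 10 points. Its calculation was tested on simulated data. For 1 value per embryo, a two-sided exact permutation test went through all 252 splits, adjusted over 16 values. The spread depends on the groups and was not recomputed for each split, so its p is approximate. Intervals of single features came from limma 3.58.1 (R 4.3.3) on levels. Python 3.11.15, numpy 2.4.6, scipy 1.17.1 and pandas 2.3.3 were used. Replicate numbers follow the order of the samples and pair nothing.

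Named tiles and promoters were the 6 with the smallest p in each direction among those with 10 points or more and no overlap of the embryos, at most 1 per gene. In each gene list the highest and the lowest member were named, beside genes of folate and methylation metabolism and of closure that are always given. For an imprinted locus the tile with the most CpGs within 5 kb of the gene and a WT level of 35 to 65% was taken. Outside these rules, Dkk3 and the called CpGs at Foxo3, Gm48671 and Spc25 were named after their values were seen. The comparison, the gene lists and the rules were chosen with earlier results of these data known. Alternatives tried were the coverage minimum, tile and promoter sizes, the filters, the labelled sex or phenotype as a covariate, summed littermates, pooled reads, limma, a fit with all 16 KO libraries, and leaving out each embryo. Embryos were separate animals, but 2 pairs were littermates, and p-values treat them as separate.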

Additional observations from a re-analysis of the deposited data

Results flagged for a closer look

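Of 62 groups of 5 embryos examined, 4 held an embryo that stood apart from the rest of its group by Dixon's test. Chance gives about 1 in 20, and the count is near that share. KO 3 ppm replicate 2 had the highest mean over promoter CpGs, 4.87%, and the highest mean over CpGs whose tile was under 10% in WT, 2.43%. Without that embryo the promoter difference was 0.0774 points and the difference of the mean over all CpGs 0.126 points. KO 3 ppm replicate 3, the library with the most reads of its group, had the smallest spread from its group, 2.81 points. At the Slc7a14 exon tile KO 3 ppm replicate 5, the NTD embryo of the control diet, read 74.0%, and without it the difference there was -16.8 points. Whether anything beyond chance sets these embryos apart was not tested.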

How the results depend on the processing

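The count of called tiles was 0 in 10 of its 25 alternatives, among them the fit with all KO libraries with and without KO 30 ppm replicate 1. It was 1 at a coverage of at least 10, 5 with the labelled phenotype as a covariate, 5 with the labelled sex and 5 with littermates summed. With normal embryos only (KO 0.1 ppm replicates 1 and 5, KO 3 ppm replicates 1 to 3) it was 58 (35 higher and 23 lower). With reads summed over embryos, a test without embryos as replicates, it was 218 (113 higher and 105 lower). Without both embryos of litter 50, an alternative chosen after seeing the data, it was 8. Leaving out 1 embryo gave between 0 and 6 tiles, with 6 without KO 3 ppm replicate 5, 5 without KO 0.1 ppm replicate 3, 4 without KO 3 ppm replicate 3 and 3 without KO 0.1 ppm replicate 2. Promoters gave 18 calls with reads summed, and 0 to 1 when 1 embryo was left out, with 1 each without KO 0.1 ppm replicate 3 and KO 3 ppm replicate 2. Single CpGs gave 22 calls at a coverage of at least 10, 14 to 62 when 1 embryo was left out (14 without KO 0.1 ppm replicate 4), 0 outside the 3 intervals and 1 without both embryos of litter 50, the last 2 chosen after seeing the data. Small differences of means changed sign without passing a threshold. The overall mean gave 0.0515 in labelled males, 0.0976 with littermates averaged, 0.732 over each library's own CpGs, -0.766 with each read weighted equally and -0.153 to 0.126 with 1 embryo left out. With littermates averaged the difference was 0.0299 in exons, 0.154 in introns, 0.199 in intergenic DNA, 0.0169 and 0.0752 at 65 to 90% and over 90% WT level, 0.141 at the 30 ppm KO list and 0.0557 for the spread, which was 0.0110 with thinned reads. At a coverage of at least 10 the 35 to 65% class gave -0.0184. Ranges with 1 embryo left out were -0.0232 to 0.0774 in promoters, -0.238 to 0.0547 in exons, -0.259 to 0.187 in introns, -0.294 to 0.232 in intergenic DNA, -0.00219 to 0.103 under 10%, -0.259 to 0.452 at 35 to 65%, -0.502 to 0.0307 at 65 to 90%, -0.334 to 0.0880 over 90%, -0.270 to 0.162 at the 30 ppm KO list and -0.222 to 0.241 for the spread. The regions filed as hyper in WT differed by -1.55 to -0.840 points, with an unadjusted exact permutation p of 0.0238 without KO 0.1 ppm replicate 5. Those filed as hypo in WT differed by 0.378 to 1.16 points with 1 embryo left out. Those filed for heterozygous embryos differed by -4.09 with each read weighted equally and -3.61 over regions with at least 3 CpGs, where the unadjusted p was no longer under the threshold. The difference between the diet effects in KO and WT ranged from -0.300 to 0.238 with 1 embryo left out, the latter without WT 0.1 ppm replicate 2. The cause of these changes was not tested. Some of the settings also bring smaller numbers of embryos or CpGs. No paired analysis was possible because each litter was on 1 diet and replicate numbers follow the order of the samples.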

Other observations

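The phenotype labels of the 16 embryos labelled KO, those on the 30 ppm diet included, were set beside the levels in the 3 intervals after the values had been seen, so the counts are a description without a test. On chromosome 10, between 40.9 and 44.4 Mb, the median of the called CpGs was between 90.8% and 97.1% in 5 of 5 embryos labelled NTD, which came from 4 litters, and between 0% and 47.0% in the 11 others, which came from 9. Of those 11, the 4 labelled inHB lay between 0% and 45.75% and the 7 normal ones between 0% and 47.0%. KO 30 ppm replicate 1, an inHB embryo, is heterozygous in the study's list and read 45% at the Tet1 CpG. Without it the 10 others still lay between 0% and 47.0%. The other intervals gave no such split: on chromosome 2 the NTD embryos ranged from 3.45% to 95% and on chromosome 18 from 0% to 91.7%. Tet1 lies on the same chromosome outside the interval, with its CpG at position 62884019 and the end of the interval at 44.4 Mb. Whether the interval is inherited together with the Tet1 allele was not tested. The CpGs of the interval were chosen by their diet difference, and 2 of the 3 NTD embryos of the diet comparison were on 0.1 ppm. Whether the embryos differ in DNA sequence there, and whether the interval bears on the phenotype, was not tested.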
